A study of Mus musculus with 10 samples.

Results

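Skeletal muscle fibres contract when calcium released from the sarcoplasmic reticulum binds troponin on the actin filaments and lets myosin pull on them, and the calcium is then pumped back into the reticulum. Fast fibres use their own forms of troponin, myosin light chain, α-actinin and calcium pump. Genes for these proteins and for the creatine kinase of muscle serve as markers of muscle tissue. Near the optic nerve head such fibres lie in the extraocular muscles, outside the eye wall, while vessel walls hold smooth muscle, which uses other actin and myosin genes. The 10 genes described here are Ckm, Acta1, Actn3, Mylpf, Tnnc2, Tnnt3, Tnni2, Atp2a1, Casq1 and Casq2. They were taken as every probe set whose gene symbol was exactly one of these names, which gave 12 probe sets among 22626, and the 10 genes stand among 12393 measured genes. They were chosen because a list of muscle genes had the lowest exact p of several tissue lists in the comparison of operated with unoperated eyes, although its members did not vary together. The differences between the eyes and the correlations among the 10 genes are therefore given as descriptions, without a test.

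The mice were C57Bl/6 males aged 6 to 8 weeks, and RNA was taken from the optic nerve head. In the elevated pressure group, the anterior chamber of the right eye was cannulated and held at 30 mmHg for 1 h, and tissue was collected 3 days later. In the control group, the left eye was left unoperated. Each array carried a pool of 2 nerve heads, with 5 arrays per group from 10 mice, so side and cannulation went with pressure. By these numbers both eyes of each mouse were used, so the control eyes are the fellow eyes of the operated ones. The labels do not say whether equal replicate numbers in the 2 groups are the same mice. The values are probe set intensities on a linear scale, called signals here. Median signals ran from 413.7 to 475.2, and precision is limited by having 5 arrays in a group. Elevated pressure replicate 1 stood apart: it correlated with the rest at 0.974 on average, where every other array reached at least 0.986, and its 3'/5' signal ratio for Gapdh was 2.07, where the others lay at 1.53 to 1.73. Its 3'/5' ratio for actin, 2.10, did not stand apart from the others, at 1.65 to 2.13. In pooled tissue, fewer cells of a type and less RNA per cell cannot be told apart.

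The glia of the labelled tissue were borne out by their markers: all 6 measured astrocyte genes and all 6 oligodendrocyte genes had mean signals of 2329 or more, with Gfap at 11579 ± 726 (SD, n = 5) after elevated pressure and 11340 ± 492 (SD, n = 5) in control. The brightest genes of neighbouring tissues had high signals too. Means over the 10 arrays were 11537 for Fmod and 9434 for Col1a2 (fibroblasts and sclera). They were 10417 for Ttr and 5673 for Dct (pigment cells), and 1157 for Sag and 1088 for Gnat1 (photoreceptors). The muscle label of the 10 genes was not borne out by the most abundant fibre genes. Ckm, the muscle creatine kinase, and Acta1, the actin of skeletal muscle filaments, are abundant in muscle fibres, yet the highest signal of either on any array was 28.8. The adult fast myosin heavy chain genes Myh1, Myh2 and Myh4 had highest signals of 26.1, 38.0 and 28.3. Of the 10 genes, 7 lay in the dimmest 25% of all genes by mean log2 value, a limit at a signal of 91.9, and 3 (Tnni2, Casq2 and Casq1) lay above it. In the dimmest 25% also lay 10 of 12 measured genes of liver, pancreas, testis, kidney and thyroid, and 1 of 16 genes of smooth muscle and pericytes. Of 74 other striated muscle genes, 51 lay there. Others were brighter, such as Tnni1, Tnnt1 and Flnc, with mean signals of 425, 454 and 605. Acta2, the actin of smooth muscle, had signals of 7160 ± 483 after elevated pressure and 7643 ± 1887 in control (SD, n = 5 each). Probe sets differ in how brightly they respond, so no order of RNA levels among genes was drawn from these signals. The genes are therefore called by their names below, not as a measure of muscle content.

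**Figure D1:**
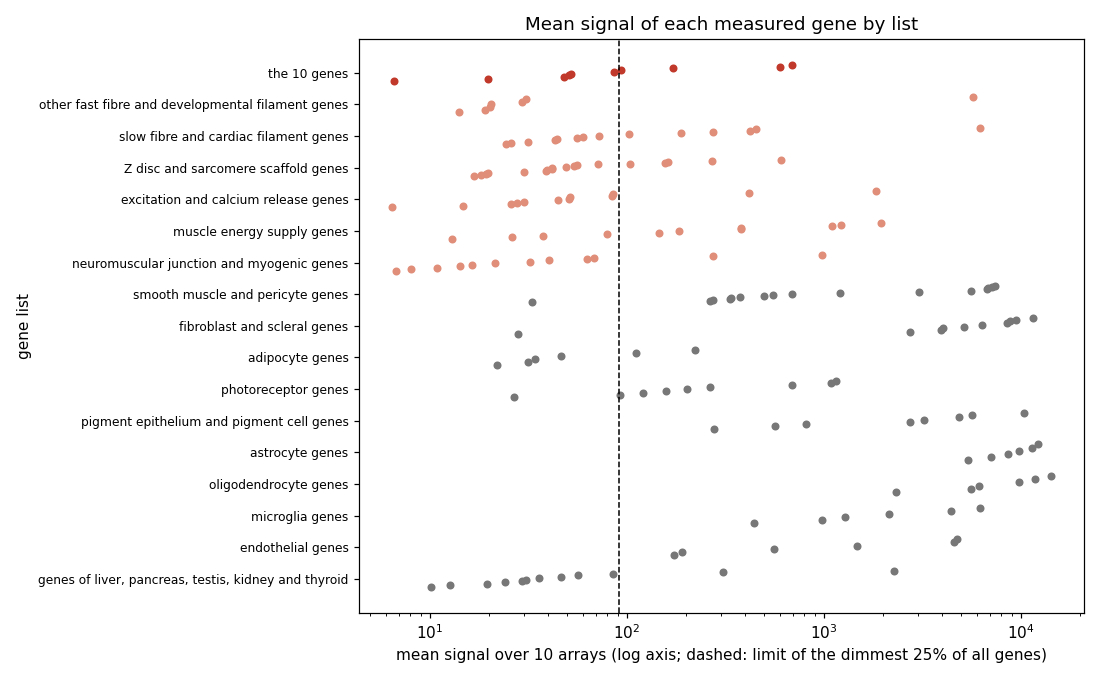
Mean signal over the 10 arrays (log axis) of each measured gene, with 1 row of points per gene list and a dashed line at the limit of the dimmest 25% of genes (91.9). The 10 genes (dark red) spread from 6.58 to 693, with 7 of them in the dimmest 25% (Tnnt3 sits at the line, since the ranking used mean log2 values), whereas 15 of 16 smooth muscle and pericyte genes lie to the right of the line.

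Upstream sequences are shown for 3 of the genes: for Casq2 and Casq1, which had the most negative differences of the 10, and for Ckm, whose signal stood at 1 on 4 arrays. Each is the 250 bases before the start of transcription, 5′ to 3′ on the gene's strand, from RefSeq promoter windows of build GRCm38.p6. The Casq2 window is chr3:102086165-102086414 on the plus strand, the Casq1 window chr1:172219896-172220145 on the minus strand and the Ckm window chr7:19410844-19411093 on the plus strand. Capitals mark matches, on either strand, to the E-box CAGCTG, which muscle regulators of the MyoD family can bind, and to the motif of myocyte enhancer factor 2 (MEF2), and no marked matches overlap.
Casq2: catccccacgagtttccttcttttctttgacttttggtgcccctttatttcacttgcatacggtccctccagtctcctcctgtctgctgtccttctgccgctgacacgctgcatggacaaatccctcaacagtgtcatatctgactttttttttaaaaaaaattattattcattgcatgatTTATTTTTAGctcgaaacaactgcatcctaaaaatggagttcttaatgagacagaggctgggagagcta
Casq1: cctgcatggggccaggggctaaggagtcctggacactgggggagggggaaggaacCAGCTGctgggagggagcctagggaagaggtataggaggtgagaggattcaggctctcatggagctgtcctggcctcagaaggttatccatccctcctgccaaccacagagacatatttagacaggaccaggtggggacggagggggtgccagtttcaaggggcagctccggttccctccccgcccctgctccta
Ckm: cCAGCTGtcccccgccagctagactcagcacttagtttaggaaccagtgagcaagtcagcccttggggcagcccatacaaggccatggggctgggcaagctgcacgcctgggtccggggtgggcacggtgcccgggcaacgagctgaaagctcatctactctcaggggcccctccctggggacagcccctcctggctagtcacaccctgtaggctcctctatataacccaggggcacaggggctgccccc

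The E-box CAGCTG was found in 5 of the 7 genes of the 10 that had a window (Casq1, Ckm, Atp2a1, Mylpf and Acta1), against 13.0% of all 32851 windows. The MEF2 motif was found in 1 of the 7, that of Casq2, against 2.92% of all windows. The motif of serum response factor (the CArG box) was also found in 1, that of Acta1, against 1.47%. These are matches of letters and not evidence of binding. All 10 genes were found in the RefSeq gene table of the same assembly, where 5 lie on chromosome 7 and Tnni2 and Tnnt3 have 1 protein-coding gene, Lsp1, between them.

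Ckm buffers ATP in muscle fibres. Its signal was 13.3, 1, 1, 15.1 and 14.9 on elevated pressure arrays 1 to 5, against 5.63, 6.82, 1, 1 and 6.06 on control arrays 1 to 5. A value of 1 was the floor of the table, with 77 to 115 probe sets on each array at or below it (lowest value 0.69), and values at the floor have no order. Ckm stood at 1 on 2 of 5 arrays in each group, and on the other arrays the elevated pressure values were above the control values. Its log2 difference was 0.27, elevated pressure minus control on the scale log2(signal + 16), with a standard error of 0.204, and 0.66 when 1 was added in place of 16.

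Acta1 had signals of 27.4, 16.9, 22.5, 28.8 and 16.9 after elevated pressure, against 17.7, 20.4, 17.7, 20.3 and 10.3 in control. Of the elevated pressure arrays, 3 lay above every control array and 2 lay below 4 of the 5 controls, so the groups overlapped. The means were 22.5 ± 5.61 after elevated pressure and 17.3 ± 4.11 in control (SD, n = 5 each), so they lay no farther apart than the larger SD, and the log2 difference was 0.21 (standard error 0.125).

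Actn3 encodes the α-actinin of fast fibres, which anchors actin at the Z disc. It had signals of 44.0, 60.2, 63.8, 74.9 and 43.4 after elevated pressure, against 45.2, 26.8, 49.9, 50.4 and 51.5 in control. Elevated pressure replicates 2, 3 and 4 were above all controls, replicates 1 and 5 were not, and control replicate 2 was far below the rest of its group. The log2 difference was 0.27 (standard error 0.160) and was 0.15 without control replicate 2.

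Mylpf, the regulatory light chain of fast myosin, had signals of 114, 84.9, 74.9, 75.3 and 119.6 after elevated pressure, against 57.6, 99.2, 95.4, 83.9 and 54.1 in control. The highest values were those of elevated pressure replicates 1 and 5 and the lowest those of control replicates 1 and 5, while the other arrays were mixed. The log2 difference was 0.23 (standard error 0.178), and leaving out 1 array at a time gave 0.13 to 0.31.

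The fast troponin complex has a calcium-binding, a tropomyosin-binding and an inhibitory subunit. The calcium-binding subunit Tnnc2 had signals of 69.5, 43.4, 70.3, 38.9 and 58.6 after elevated pressure, against 28.5, 38.9, 45.03, 32.2 and 53.4 in control. Elevated pressure replicates 1, 3 and 5 were above all controls and replicates 2 and 4 fell within the control range. Its log2 difference of 0.37 (standard error 0.163) was the highest of the 10 genes. The tropomyosin-binding subunit Tnnt3 had signals of 79.3, 115.7, 70.8, 121.2 and 57.9 after elevated pressure, against 76.2, 117.5, 87.3, 126.8 and 86.4 in control. Here elevated pressure replicates 2 and 4 were the high ones of their group, the arrays on which Tnnc2 was lowest within it. The log2 difference was -0.15 (standard error 0.192), or -0.03 without elevated pressure replicate 5, and the correlation of log2 values between the 2 genes was -0.58 over the 10 arrays (rank correlation -0.61).

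The inhibitory subunit Tnni2 was measured by 3 probe sets. The brightest, numbered 1416889, had signals of 538.9, 533.3, 849, 734 and 720 after elevated pressure, against 1028, 571, 604, 746 and 605 in control. Control replicate 1 was the highest and elevated pressure replicates 1 and 2 the lowest, and the groups overlapped. Another, numbered 1438609 with the suffix _x_at, which marks probes that may also match other sequences, had signals between 248 and 329 after elevated pressure, and between 228 and 372 in control. The dimmest, numbered 1438608, had signals of 11.3, 4.63, 10.96, 14.4 and 15.5 after elevated pressure, against 23.9, 19.7, 11, 18.95 and 15.5 in control. The log2 differences of the 3 were -0.06, 0.04 and -0.31 in the same order. Agreement between probe sets of 1 gene was not used in choosing the genes and could be tested. Over the 10 arrays the brightest correlated with the _x_at probe set at r = 0.06 (Spearman's rho -0.07, permutation p = 0.865 and 0.864) and with the dimmest at r = 0.56 (rho 0.42, permutation p = 0.0892 and 0.231). The _x_at and the dimmest probe sets correlated at r = 0.44 (rho 0.53, permutation p = 0.211 and 0.124). Of these 3 relations none passed after Benjamini-Hochberg adjustment, where the lowest permutation p was 0.268 for r and 0.347 for rho. Without the 2 arrays farthest from the median of the first probe set named, the 3 values of r were -0.11, 0.56 and 0.30, and without elevated pressure replicate 1 they were 0.17, 0.54 and 0.51.

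The calcium store was represented by the fast pump Atp2a1 (SERCA1) and by calsequestrins 1 and 2, proteins that bind calcium inside the reticulum. Atp2a1 had signals of 54.8, 74.2, 55.2, 38.6 and 37.3 after elevated pressure, against 55.1, 54.3, 53.3, 46.4 and 51.1 in control. The group means were 52.0 ± 15.1 (SD, n = 5) after elevated pressure and 52.0 ± 3.51 (SD, n = 5) in control, with the single highest and the 2 lowest values all after elevated pressure.

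Casq1, the form of fast skeletal fibres, had signals of 109.8, 150.8, 167, 166 and 152 after elevated pressure, against 176, 264, 204, 151 and 172 in control. All elevated pressure arrays lay below 4 of 5 controls, and control replicate 4 overlapped with them. The means were 149 ± 23.3 (SD, n = 5) after elevated pressure and 194 ± 43.5 (SD, n = 5) in control, and the log2 difference of -0.33 (standard error 0.151) was -0.24 without elevated pressure replicate 1 and -0.22 without control replicate 2.

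Casq2 is the calsequestrin of heart muscle and is also known from slow fibres and some smooth muscle. Its signals were 503.6, 489, 566, 485 and 507 after elevated pressure, against 709, 763, 785, 656 and 529 in control. Of the elevated pressure arrays, 4 lay below every control, and replicate 3 lay above control replicate 5 but below the other 4 controls. The means were 510.2 ± 32.6 (SD, n = 5) after elevated pressure and 688 ± 102 (SD, n = 5) in control. The log2 difference of -0.41 (standard error 0.109) was the most negative of the 10 genes and ran from -0.50 to -0.36 when 1 array was left out. The probe set has the suffix _s_at, which marks probes shared by several transcripts.

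**Figure D2:**
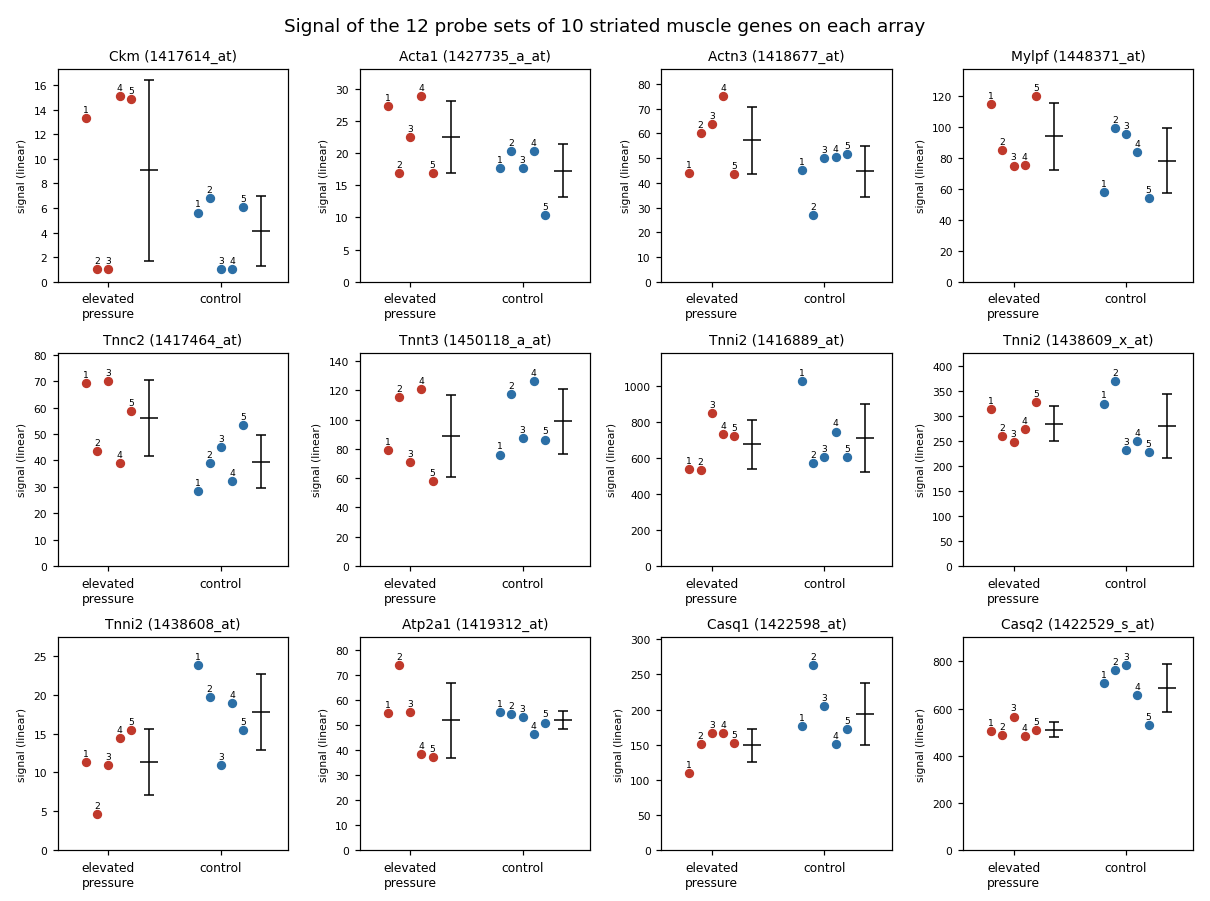
Signal on a linear scale from 0 on each array for the 12 probe sets of the 10 genes, with elevated pressure in red left of control in blue, replicate numbers above the points, and black marks for the mean ± SD (n = 5 each). In Casq2 the elevated pressure points cluster between 485 and 566, below 4 of the 5 controls, while the 3 probe sets of Tnni2 order the arrays differently.

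Across all 12393 genes, 0 (0%) passed limma's test at an adjusted p under 0.05, while 492 had an unadjusted p under 0.05. With a trended, robust variance in limma these counts were 0 and 446. Of the 10 genes, 5 had a positive and 5 a negative difference, and the groups overlapped in all 10, where the groups did not overlap in 0.629% of all genes (0.403% higher and 0.226% lower after elevated pressure). The median difference of the 10 genes was 0.09 and that of all genes -0.01, with 52.7% of all genes below 0. Since the genes were chosen from this comparison, nothing is read from these counts.

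The 10 genes did not rise and fall together over the arrays. Each array held 4 to 7 of the 10 genes above their own mean, so no pool stood high for the set. The highest array was elevated pressure replicate 4 for Ckm, Acta1 and Actn3, and differed for each of the other 7 genes. Over the 45 pairs of genes, the mean correlation was -0.07, against 0.02 over all pairs of the 12393 genes, and 20 pairs were above 0. The 6 lists of other striated muscle genes had means between -0.06 and 0.11, the genes of liver, pancreas, testis, kidney and thyroid 0.01, adipocyte genes 0.07 and fibroblast genes 0.15, so a low mean was not particular to the 10 genes. It was 0.74 for 9 photoreceptor genes, 0.63 for 8 pigment cell genes and 0.34 for 16 smooth muscle genes measured on the same arrays. Only Casq1 and Casq2 exceeded 0.5 among the 45 pairs, at r = 0.70 (rank correlation 0.75), and both had their highest signals on control replicates 2 and 3. At the other end, Ckm and Atp2a1 stood at -0.63. All of these correlations share the same 10 pools and were part of the reason for the choice, so they have no p-value.

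**Figure D3:**
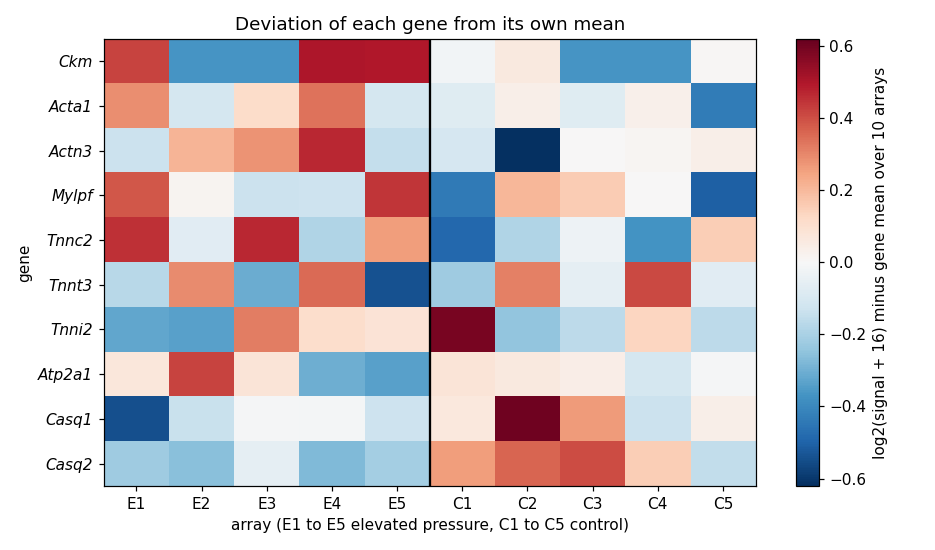
Deviation of each gene's log2(signal + 16) from its own mean over 10 arrays, with genes in rows and arrays in columns (E1 to E5 elevated pressure, then C1 to C5 control). No column is red or blue throughout, with 4 to 7 of 10 genes above their mean on each array, and the pair Casq1 and Casq2 shares its high values on C2 and C3.

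The spread of each gene over the arrays was set beside that of genes of like signal, taken from 10 equal bins of mean log2 value. For Ckm the SD of the log2 values was 0.37, above that of 86.9% of its bin, whose median was 0.25. For Tnnc2 the SD of 0.33 exceeded 69.2% of its bin, and for Tnni2 the SD of 0.30 exceeded 66.5%. The shares for Casq2, Casq1, Actn3, Mylpf and Tnnt3 were between 57.1% and 60.0%. Acta1 and Atp2a1 varied less than most, at 32.7% and 26.4%.

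For each gene the genes with the most similar pattern over the 10 arrays were sought among the 6197 genes at or above the median log2 value. Tnni2 had the closest partners, Gask1b (r = 0.98) and Kdr (r = 0.94). Kdr, a receptor for vascular endothelial growth factor on endothelial cells, had signals of 913, 1078, 2146, 1533 and 1623 after elevated pressure, against 2092, 1106, 1251, 1869 and 1223 in control. As with the brightest probe set of Tnni2, elevated pressure replicates 1 and 2 were the lowest arrays and control replicate 1 and elevated pressure replicate 3 the highest. Casq1 was closest to Rab5c (r = 0.95) and Axin2 (r = 0.93), and Casq2 to Eif2ak2 (r = 0.87) and Map7 (r = 0.86). The closest partners of Ckm were Ppm1g and Ice2 (r = 0.90 and 0.88), those of Acta1 Pdap1 and Trim39 (both 0.90), and those of Actn3 Lrrk1 and Tmem109 (0.91 and 0.83). Mylpf was closest to Uqcc3 and Nat9 (0.89 and 0.88), Tnnc2 to Homer3 and Cdc42ep1 (0.85 and 0.82), Tnnt3 to Cipc and Pfn2 (0.85 and 0.84), and Atp2a1 to Hbb-b2 and Ccn3 (0.89 and 0.85). With so many candidates and 10 arrays a high r is common: the best r of a gene had a median of 0.93 over all genes. Only Tnni2 and Casq1 exceeded it, and Tnnt3 and Tnnc2 lay near the 5th percentile of 0.84. None of the partners was in a muscle list, and Kdr was in the list of endothelial genes. The limit at the median kept most muscle genes out of the candidates. All 10 genes lay in the 5 dimmest of the 10 bins, so Casq1 and Casq2 could not be partners of each other. Of the 74 other striated muscle genes, 51 lay in the dimmest part of the table and could not be partners either. Nothing is therefore read from the absence of muscle genes.

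Whether a gene followed a neighbouring tissue was tested with scores, the mean log2 deviation on an array of the marker genes of smooth muscle and pericytes, fibroblasts and sclera, adipocytes, photoreceptors, and pigment cells. The values of the 10 genes on these same arrays were used in choosing them, so these p-values are read only as a description. Of the 50 relations between the 10 genes and 5 scores, 2 had an unadjusted permutation p under 0.05 and 0 passed after adjustment over the 50 (lowest adjusted permutation p = 0.646 for r and 0.779 for Spearman's rho). The strongest of the 50 was Tnni2 with the pigment cell score, at r = 0.75 (permutation p = 0.0129) and rho 0.55 (permutation p = 0.107). It stood at 0.49 without the 2 arrays farthest from the median score, 0.78 without elevated pressure replicate 1, 0.29 within elevated pressure and 0.97 within control (5 arrays each). The other was Casq1 with the smooth muscle score, at r = -0.68 (permutation p = 0.0352) and rho -0.39 (permutation p = 0.263). It stood at -0.64 without the 2 farthest arrays, -0.59 without elevated pressure replicate 1, -0.42 within elevated pressure and -0.89 within control. The next by p were Atp2a1 with the adipocyte score (r = 0.65, permutation p = 0.0593, rho 0.10, permutation p = 0.786), Mylpf with the fibroblast score (r = -0.60, permutation p = 0.0654, rho -0.49, permutation p = 0.156) and Casq2 with the fibroblast score (r = -0.60, permutation p = 0.0682, rho -0.61, permutation p = 0.0669). The adjusted permutation p of r was 0.682 for these 3, and r was 0.35, -0.35 and -0.49 without the 2 farthest arrays of each score. Without elevated pressure replicate 1, Tnni2 stood at r = 0.82 with the smooth muscle score, against 0.53 with all arrays, and again no relation of the 50 passed (lowest adjusted permutation p = 0.253). The scores ranged from -0.80 to 1.42 after elevated pressure and from -1.45 to 1.45 in control for photoreceptors, from -0.30 to 0.31 after elevated pressure and from -0.51 to 0.23 in control for smooth muscle, and from -0.37 to 0.60 after elevated pressure and from -0.69 to 1.07 in control for pigment cells. Scores of astrocyte, oligodendrocyte, microglia and endothelial genes were not among the 5, and relations with them were not tested. The endothelial score was highest on elevated pressure replicate 3 (0.43) and control replicate 1 (0.38), where Tnni2 was highest too. The oligodendrocyte score was highest on control replicates 2 (0.33) and 3 (0.35), where Casq1 was highest too. These 2 scores were looked at after the other results.

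Other striated muscle genes were grouped in 6 lists of 89 names, of which 74 were measured and 15 are not analysed here. None of the 74 passed limma's test (0% of all genes), 37 were above 0 and 37 below, and the groups overlapped in every one of them. At an unadjusted p under 0.05 there were 3 with positive differences, against 2.65% of all genes, and 1 with a negative one, against 1.32%. In the dimmest 25% of genes lay 51 of the 74 (68.9%).

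Among filament genes of fast and developing fibres, 5 of 7 had positive and 2 negative differences, with a median of 0.06. Myh1 had signals of 13.2, 18.6, 12.6, 14.4 and 26.1 after elevated pressure, against 11.99, 13.2, 11.2, 7.75 and 12.9 in control, a log2 difference of 0.25. Myh2, Myh3 and the light chain Myl1 had values of 0.03, -0.13 and 0.08. The only bright member was Tpm2, a tropomyosin that smooth muscle also uses, at 5571 ± 551 (SD, n = 5) after elevated pressure and 5909 ± 1413 (SD, n = 5) in control.

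Among slow and cardiac filament genes, 6 of 14 had positive and 8 negative differences (median -0.01). Tnni3, the cardiac inhibitory troponin, had signals of 57.1, 56.2, 68.2, 31.4 and 62.9 after elevated pressure, against 49.3, 32.6, 29.9, 32.5 and 23.1 in control. It was above all controls on 4 of 5 elevated pressure arrays, with a log2 difference of 0.52 (standard error 0.173). Tnnt2, its tropomyosin-binding partner in heart muscle, had signals of 42.6, 53.5, 52.6, 56.0 and 60.2 after elevated pressure, against 82.2, 63.3, 58.6, 73.1 and 57.9 in control. Its log2 difference was -0.26 (standard error 0.105), and its other probe set stood at 0.03. The slow light chain gene Myl3 was at 0.28, with its other probe sets at -0.01 and 0.36, and is named for its unadjusted p after its values were seen. The slow troponins Tnni1 and Tnnt1 had mean signals of 398 ± 121 and 464 ± 120 after elevated pressure, and 452 ± 119 and 445 ± 97.5 in control (SD, n = 5 each), with log2 differences of -0.19 and 0.05. Tpm3, a tropomyosin of many cell types, stood at -0.03.

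Z disc and scaffold genes had 8 positive and 10 negative differences of 18 (median -0.04). Ldb3, a PDZ and LIM domain protein of the Z disc, had signals of 68.9, 187, 362, 324 and 195 after elevated pressure, against 379, 310, 366, 328 and 210 in control. Elevated pressure replicate 1 was the lowest by far, and the log2 difference of -0.61 had a standard error of 0.356. Flnc, which encodes filamin C, and Myom2, a protein of the M band, had values of 0.21 and -0.01. Lmod2, which starts actin filaments in heart muscle, had signals of 38.3, 31.3, 189, 50.4 and 32.7 after elevated pressure, against 47.3, 22.7, 20.8, 15.5 and 42.6 in control, and is named after its values were seen. Its log2 difference of 0.67 (standard error 0.386) rests largely on elevated pressure replicate 3. The dim genes Myot and Cmya5 had values of -0.28 and -0.36, at mean signals of 16.03 and 15.7 after elevated pressure and 22.7 and 23.9 in control.

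Of the genes of excitation and calcium release, 3 of 12 had positive and 9 negative differences (median -0.05). Pln, phospholamban, which restrains the calcium pump of cardiac and smooth muscle, had signals of 445, 194, 623, 417 and 262 after elevated pressure, against 494, 208, 419, 781 and 331 in control. It ranged widely within both groups, and its log2 difference of -0.18 had a standard error of 0.363. Ryr2, the cardiac calcium release channel, ranged from 24.2 to 142 after elevated pressure and from 42.5 to 128 in control. The calcium buffer Pvalb, also found in neurons, stood at -0.05, Jph1, which holds the reticulum to the cell membrane, at -0.20, and the calcium channel subunit Cacng1 at 0.39, with no signal above 16.1.

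Energy supply genes had 7 positive and 4 negative differences of 11 (median 0.09). Pygm, the muscle form of glycogen phosphorylase that astrocytes also express, had signals of 1379, 1476, 1011, 1271 and 1433 after elevated pressure, against 1216, 1154, 1208, 1029 and 1069 in control, and a log2 difference of 0.20 (standard error 0.110). Cox7a1, a subunit of cytochrome oxidase, and Fabp3, a fatty acid carrier, had values of 0.09 and -0.29. Genes of the neuromuscular junction and of muscle formation had 8 positive and 4 negative differences of 12 (median 0.03). The acetylcholine receptor gene Chrnb1 was at 1060 ± 101 after elevated pressure and 908 ± 110 in control (SD, n = 5 each), a log2 difference of 0.22 (standard error 0.105), while Musk, its clustering kinase, stood at 0.05. The transcription factors Myf6 and Pax3 had values of 0.19 and -0.24.

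**Figure D4:**
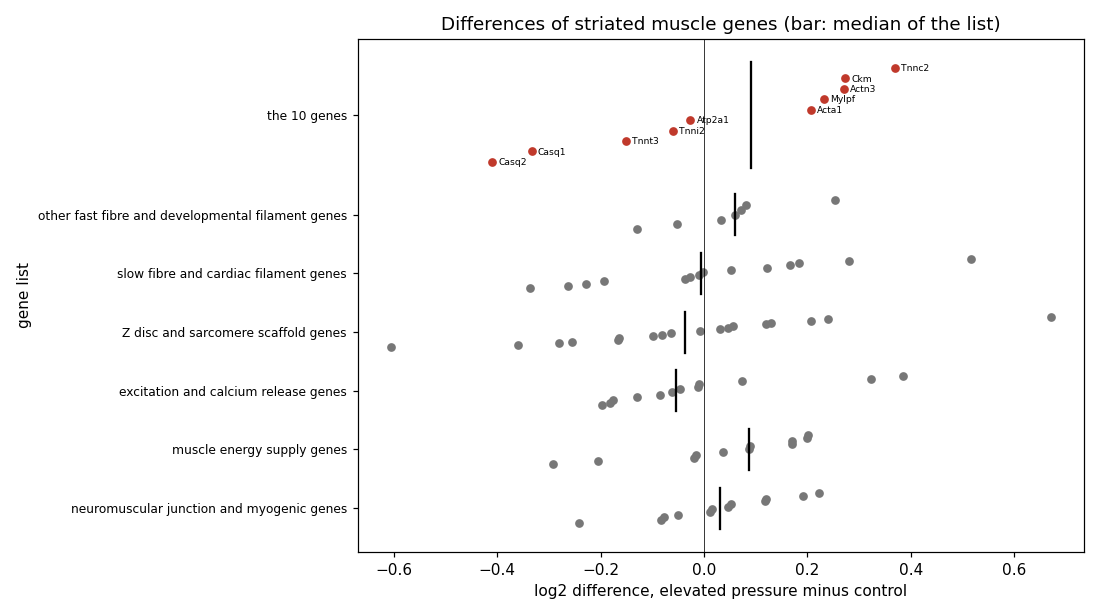
Log2 difference, elevated pressure minus control, of each measured gene, with the 10 genes in red in the top row, 6 lists of other striated muscle genes below and a black bar at the median of each list. The 10 genes spread from -0.41 (Casq2) to 0.37 (Tnnc2), and the medians of the 6 lists lie between -0.05 and 0.09.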

How the data were processed

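The authors deposited a table of probe set intensity, linear and not below 0.69, for 10 arrays. How it was summarised, background-corrected and scaled is not given in the labels or the table, and no detection calls were used. Per the labels' protocols, RNA was amplified with the Ovation system and biotin-labelled.

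Values were analysed as log2(signal + 16), with 64 control probe sets left out. The brightest probe set by mean log2 value stood for a gene with several, giving 12393 genes. Groups were compared with limma 3.58.1 (R 4.3.3) without a block, with Benjamini-Hochberg adjustment over all genes; the test was checked on simulated data. Correlations used two-sided permutation tests with 100000 resamples. Python 3.11.15, NumPy 2.4.6, pandas 2.3.3 and SciPy 1.17.1 were used. P-values measure the spread between pools. With 10 mice and 2 nerve heads on each of 10 arrays, eyes of the same mice are on arrays of both groups. Which arrays share mice is not known, and the tests treated all arrays as independent.

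Members and lists were chosen with earlier results of these data known. Named by rule were all 10 genes, the 3 brightest and the 2 with the smallest p of each striated list, and 2 partners per gene. Alternatives were other normalizations, a pseudocount of 1, other probe sets, a filter on dim genes, a trended variance, a replicate block and leaving out arrays.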

Additional observations from a re-analysis of the deposited data

Results flagged for a closer look

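In 24 groups of 5 arrays (12 probe sets, 2 groups each), 4 held an array far from the other 4. The rule was a gap to the nearest array above 0.71 of the group's range of log2 values. Chance gives this about 1 in 20 times in independent groups. These groups share the same pools, so nothing is read from the count. Acta1 was lowest in control replicate 5, at a signal of 10.3, and Actn3 was lowest in control replicate 2, at 26.8. Casq1 was lowest in elevated pressure replicate 1, at 109.8, which is the array with the highest 3' to 5' Gapdh ratio, and the part of that ratio in the value was not tested. Casq2 was highest for its group in elevated pressure replicate 3, at 566, with a gap of 0.7101 of the range, barely above the limit.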

How the results depend on the processing

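No gene of the table was called under any setting run, with 1 array left out (0 in each of 10 settings) or otherwise. The number at an unadjusted p under 0.05 rose to 1044 without elevated pressure replicate 3, against 492 with all arrays and 368 without control replicate 2. Leaving out the dimmest 25% of genes kept 3 of the 10 genes, whose median was -0.33 against 0.09 for all 10. Of the fast and developing filament genes only 1 was left, Tpm2, at -0.051. Of the junction and myogenic genes 2 were left, with a median of 0.14. With 1 array left out, the median of the 10 genes ran from 0.05 to 0.13. Over these 10 settings 8 of the 10 genes kept their sign, and Tnni2 (-0.15 to 0.08, positive without elevated pressure replicate 1 or 2 or control replicate 1) and Atp2a1 (-0.13 to 0.05, positive without elevated pressure replicate 4 or 5) did not. Ckm stood at 0.66 with a pseudocount of 1, against 0.27. Medians of the striated lists ran from -0.00 to 0.07 (fast), -0.02 to 0.02 (slow and cardiac), -0.08 to 0.03 (Z disc), -0.10 to 0.03 (calcium release), 0.04 to 0.13 (energy) and -0.01 to 0.06 (junction). The replicate block called 0 genes. It could not change the fold changes, since each number has 1 array in each group. Whether equal numbers are the same mice is not known from the labels, and the arrays were treated as unpaired: correlations of the deviations of equal numbers were -0.02, 0.21, -0.08, 0.18 and -0.06, and in 2 of 5 cases an elevated pressure array correlated best with its own number. The 50 tissue relations gave 0 calls under each setting run. Dim signals limit the values of 7 of the 10 genes, and Ckm was at the floor on 4 of 10 arrays.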
